A study of Mus musculus with 5 samples.

Results

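Wnt target genes were examined in mouse embryonic stem cells depleted of Tet1, the dioxygenase that oxidizes 5-methylcytosine in DNA. The set held 10 genes: Sp5, Axin2, Lef1, Tcf7, Cdx1, T, Nkd1, Dkk1, Wnt8a and Ccnd1. Their members were found as all probe sets that the platform annotation gives exactly 1 gene symbol. This gave 16 probe sets for 8 of the genes, out of 18193 genes with such a probe set on the array. Tcf7 and T were not analysed here.

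The series holds 5 Affymetrix arrays, 1 for each group, so no group has a replicate. J1 cells, an established embryonic stem cell line, were kept on mouse embryonic fibroblast feeders and received a control siRNA or an siRNA against Tet1. They were collected on day 4 after transfection. E14 cells, a second such line, were kept without feeders and received lentivirus with a scramble shRNA (Scr shRNA) or with Tet1 shRNA3387 or Tet1 shRNA2863, and were taken on day 4 of puromycin selection. Line, feeders, reagent and selection therefore differ together between J1 and E14 and cannot be told apart. All values below are log2 probe set values, and a difference is a log2 difference between arrays, so that 1 corresponds to 2-fold.

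Wnt proteins bind Frizzled receptors with Lrp5 or Lrp6, and this stops the destruction complex of Axin, Apc and Gsk3 kinases from marking beta-catenin for breakdown. Beta-catenin then enters the nucleus and binds TCF and LEF factors at target genes, many of which encode feedback inhibitors of the pathway. In mouse embryonic stem cells Wnt signalling supports self-renewal, in part by relieving repression by the TCF factor Tcf7l1.

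The upstream sequences of Sp5, Lef1 and Axin2 are shown because these members had the widest ranges over the arrays by their brightest probe sets. TCF and LEF factors recognise a short core in DNA, and the sequences were searched for it. Each run is the 250 bases before an annotated start, 5′ to 3′ on the gene's strand, from RefSeq on GRCm38.p6, and capitals mark a match to the core. The Sp5 window is chr2:70474673-70474922, the Lef1 window chr3:131110047-131110296 (the first of 4 listed starts) and the Axin2 window chr11:108920099-108920348, all on the plus strand.
Sp5: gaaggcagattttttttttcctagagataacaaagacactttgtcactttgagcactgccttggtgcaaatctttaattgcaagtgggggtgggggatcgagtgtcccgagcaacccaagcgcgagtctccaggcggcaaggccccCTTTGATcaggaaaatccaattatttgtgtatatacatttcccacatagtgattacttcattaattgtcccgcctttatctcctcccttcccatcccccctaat
Lef1: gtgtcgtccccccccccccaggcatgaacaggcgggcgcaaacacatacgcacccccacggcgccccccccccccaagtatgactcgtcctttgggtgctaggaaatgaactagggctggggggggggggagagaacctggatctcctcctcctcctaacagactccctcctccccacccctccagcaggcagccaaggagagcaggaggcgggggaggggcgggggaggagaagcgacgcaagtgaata
Axin2: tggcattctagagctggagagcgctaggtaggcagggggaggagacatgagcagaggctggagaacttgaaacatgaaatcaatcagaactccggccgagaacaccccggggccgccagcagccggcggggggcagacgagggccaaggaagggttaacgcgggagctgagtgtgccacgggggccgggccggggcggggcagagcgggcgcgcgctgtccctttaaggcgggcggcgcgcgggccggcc
The core was searched as CTTTGAT and CTTTGAA on both strands; these differ in the last letter, so they cannot match at the same place on 1 strand. The Sp5 window held 1 CTTTGAT, which begins 104 bases before the start, and the windows of Lef1 (all 4) and Axin2 held neither form. CTTTGAT was present in 3.21% and either form in 7.48% of the 32851 windows of this length. Among the other genes with probe sets, the Dkk1 window held 1 CTTTGAA and the Nkd1 window neither form. No windows were available for Cdx1, Wnt8a and Ccnd1. A match is a description of letters and does not show a binding site. Its absence from these 250 bases does not show that a gene lacks one.

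Of the 8 genes with probe sets, 5 exceeded the filter level on at least 1 array: Sp5, Axin2, Lef1, Nkd1 and Ccnd1. The filter level is the 40th percentile of all non-control probe sets of an array and lay between 3.03 and 3.12. Over the 16 probe sets, 6 were above it on all 5 arrays, 2 on some arrays and 8 on none. Those 8 read between 1.92 and 2.94, and none of them varied by more than 0.15 over the arrays.

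**Figure D1:**
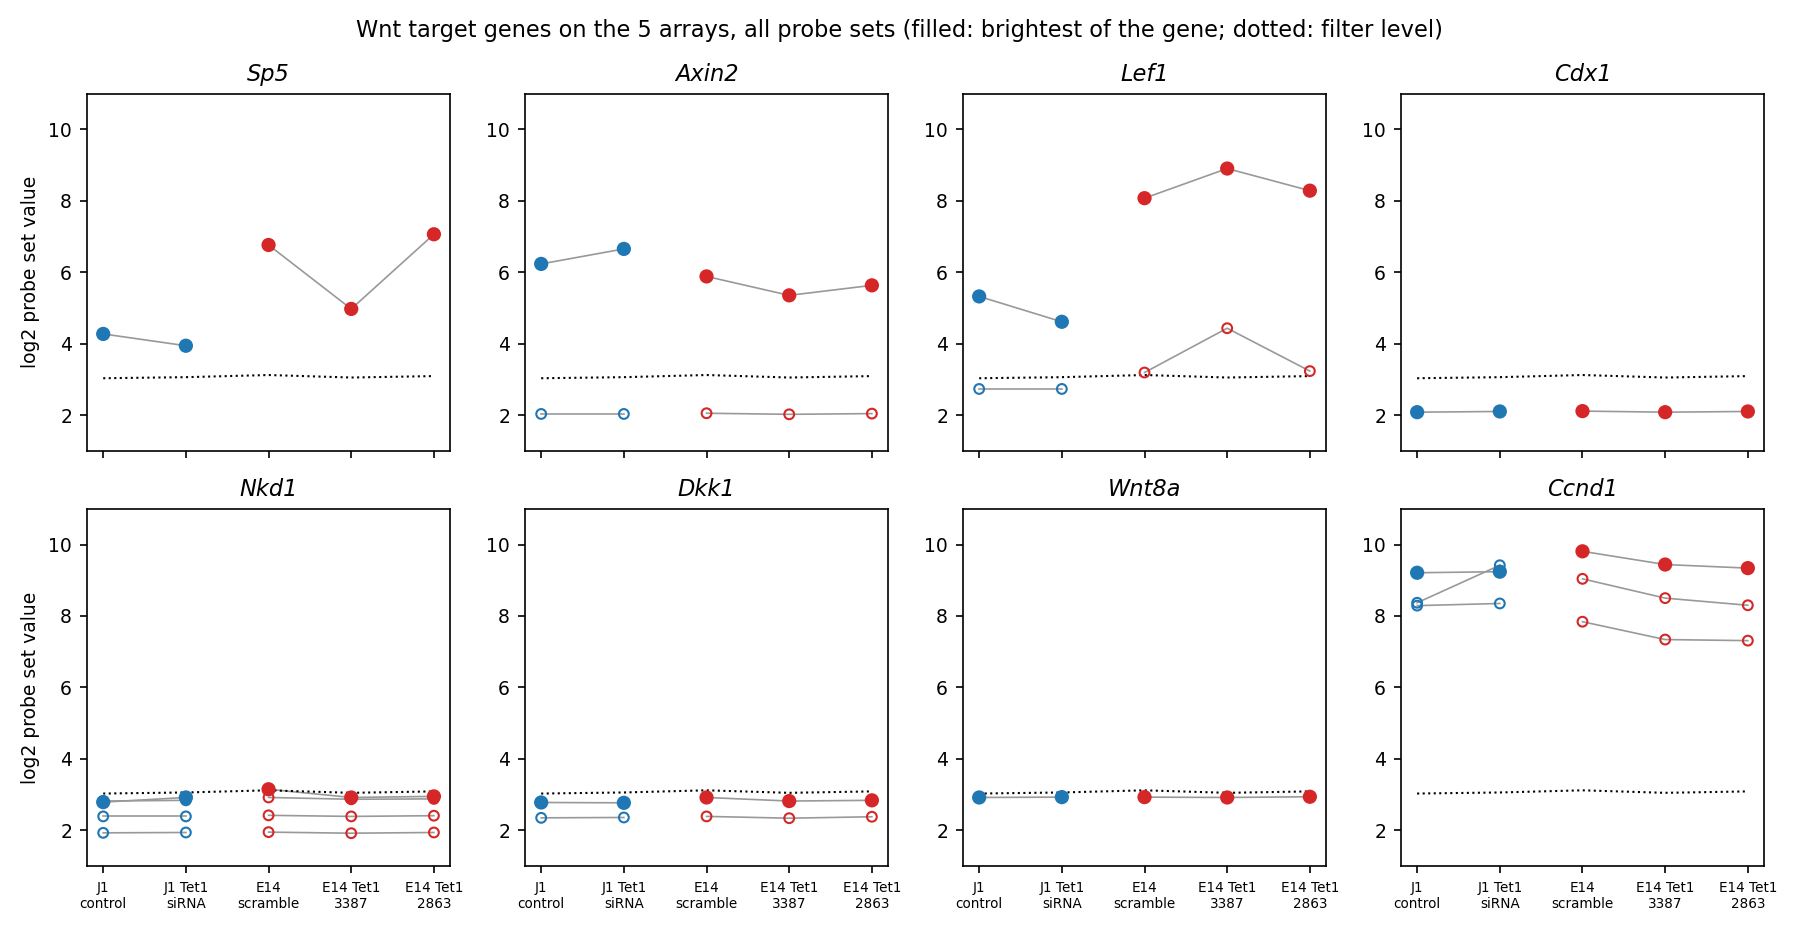
Log2 values (y axis) of every probe set of the 8 genes on the 5 arrays (x axis), with J1 arrays in blue and E14 arrays in red; filled points are the brightest probe set of the gene, open points its others, and the dotted line is the filter level. Sp5 and Lef1 lie higher on the E14 arrays, with Sp5 at 4.97 for shRNA3387 between the J1 values and the other E14 values, while Cdx1, Dkk1 and Wnt8a stay under the filter level on all 5 arrays.

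The depletion was checked first in Tet1 itself. In J1 cells its brightest probe set gave 10.85 (control siRNA) and 8.31 (Tet1 siRNA), and in E14 cells 10.95 (scramble), 9.24 (shRNA3387) and 10.06 (shRNA2863). It was thus lower on each array labelled as depleted, and lower with shRNA3387 than with shRNA2863. Over both systems it differed by -1.83 ± 0.43 (SE; limma adjusted p = 0.7). Pou5f1, Sox2 and Nanog, which define embryonic stem cells, read at least 9.71 on all 5 arrays.

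Sp5 encodes a zinc finger transcription factor that is induced directly by Wnt signalling. Its only probe set read 4.27 in J1 control cells and 3.94 after Tet1 siRNA. In E14 cells it read 6.76 with scramble, 4.97 with shRNA3387 and 7.06 with shRNA2863. The shRNA3387 array was the low one among the E14 arrays, and the other hairpin did not share this. Sp5 was 3.46-fold lower with shRNA3387 than with scramble and 4.26-fold lower than with shRNA2863, a comparison that does not involve the scramble array. Differences of at least this size in either direction were found for 0.14% of the 13619 genes above the filter in the former comparison and for 0.0441% in the latter. Against scramble, shRNA2863 differed by 0.30, and in J1 cells Tet1 siRNA differed from its control by -0.33, sizes reached by 24.5% and 26.2% of genes.

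The 3 depletions thus gave no common direction for Sp5. In limma with a term for the system (J1 or E14), depletion differed from control by -0.57 ± 0.72 (SE, 3 depleted and 2 control arrays; limma adjusted p = 0.87). The value is -0.02 without the shRNA3387 array and -1.06 without the shRNA2863 array. In order of level, the step from shRNA3387 up to scramble, 1.79, was the only one between neighbouring arrays larger than the residual SD of 1.06 in this fit, and that SD itself contains the distance between the hairpins.

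Lef1 encodes one of the DNA-binding partners of beta-catenin and is itself a Wnt target. Its brightest probe set read 5.32 and 4.61 in J1 cells with control and Tet1 siRNA. In E14 cells it read 8.07 with scramble, 8.90 with shRNA3387 and 8.28 with shRNA2863. It was lower with Tet1 siRNA in J1 and higher with each hairpin in E14, most with shRNA3387. The differences from the respective controls were -0.71 (1.64-fold lower), 0.83 (1.78-fold higher) and 0.21 (1.16-fold higher), and 5.33%, 3.54% and 36.1% of genes differed at least as much.

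The second Lef1 probe set read 2.73 on both J1 arrays, under the filter level. It read 3.19, 4.43 and 3.23 with scramble, shRNA3387 and shRNA2863. It too was highest with shRNA3387, at 2.36-fold the scramble and 2.30-fold the shRNA2863 value, but the scramble and shRNA2863 values were close to the filter level. Over both systems the brightest probe set differed by -0.01 ± 0.39 (SE; limma adjusted p = 0.998), an average over opposite signs, and the direction of this average turned in several alternatives. Lef1 and Sp5 differed in opposite directions with shRNA3387, both against scramble and against shRNA2863.

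**Figure D2:**
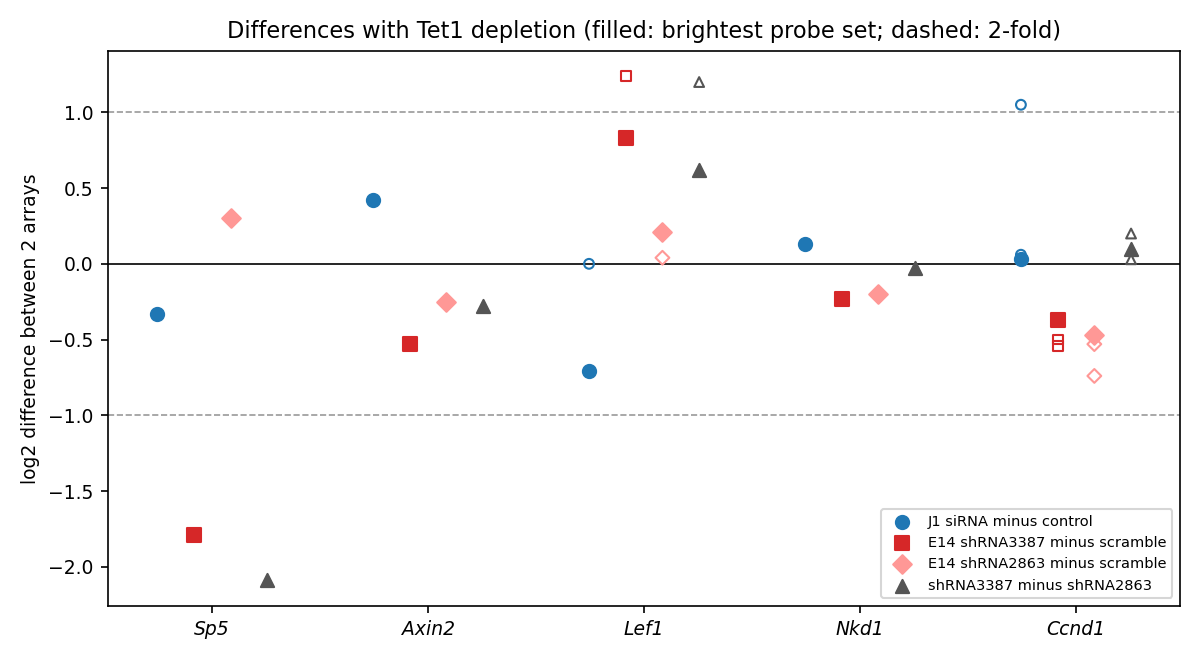
Log2 differences between 2 arrays (y axis) for the 5 genes above the filter (x axis), by comparison; filled symbols are the brightest probe set, open symbols other probe sets above the filter level on at least 1 array, and dashed lines mark 2-fold. Only Sp5 with shRNA3387 passes 2-fold by the brightest probe set, at -1.79 against scramble and -2.09 against shRNA2863.

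Axin2, Nkd1 and Dkk1 encode feedback inhibitors of the pathway: Axin2 is a scaffold of the destruction complex, Nkd1 binds Dishevelled, and Dkk1 is secreted and blocks the co-receptors Lrp5 and Lrp6. Axin2 read 6.23 and 6.65 in J1 cells with control and Tet1 siRNA, and 5.88, 5.35 and 5.63 in E14 cells with scramble, shRNA3387 and shRNA2863. It was 1.34-fold higher with Tet1 siRNA in J1 and 1.44-fold and 1.19-fold lower with shRNA3387 and shRNA2863 in E14, all under 1.5-fold. The second Axin2 probe set read 2.02 to 2.05, under the filter level on all arrays. Depletion differed by -0.04 ± 0.24 (SE; limma adjusted p = 0.987) over both systems and by -0.39 ± 0.18 (SE; limma adjusted p = 0.609) in E14.

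Nkd1 was above the filter level on 1 array by 1 probe set, at 3.15 with scramble against a level of 3.12. On the other arrays this probe set read 2.79 and 2.92 in J1 and 2.92 and 2.95 with shRNA3387 and shRNA2863. It passed the filter only through the scramble array, so its lower values with the hairpins (-0.23 and -0.20) follow in part from the selection. The 16036 probe sets under the filter level on all arrays also lay slightly lower with the hairpins, by a median of -0.03 and -0.01, and from their 5th to their 95th percentile they ran from -0.12 to -0.02 and from -0.08 to 0.00. The other Nkd1 probe sets read 1.92 to 2.92, and the Dkk1 probe sets 2.34 to 2.92, on all arrays. Neither gene could therefore be followed at this signal over background.

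Cdx1, a caudal-type homeobox factor of the posterior embryo, read 2.08 to 2.11. Wnt8a, a ligand that is itself induced at the primitive streak, read 2.92 to 2.94. No difference in either was detectable at this signal, which does not show that the genes were silent. Among the primitive streak and mesoderm markers, where several of these targets act in the embryo, 5 of 10 were above the filter. With each hairpin 2 of these lay above scramble and 3 below, with medians of -0.16 for shRNA3387 and -0.01 for shRNA2863. Eomes had the largest difference, 0.71 and 0.67, with 7.14 and 7.10 against 6.43 with scramble.

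Ccnd1 encodes cyclin D1, which drives cells from G1 into S phase. Its 3 probe sets were above the filter level on all arrays and gave differences of similar size in E14 but not in J1. In E14 cells the brightest read 9.81, 9.44 and 9.34 with scramble, shRNA3387 and shRNA2863. The second read 9.04, 8.50 and 8.30, and the third 7.84, 7.34 and 7.31. The scramble array was highest in each, with differences between -0.37 and -0.54 for shRNA3387 and between -0.47 and -0.74 for shRNA2863. Both hairpins were set against this same scramble array. Between the hairpins the probe sets differed by 0.10, 0.20 and 0.03.

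In J1 cells the brightest Ccnd1 probe set read 9.21 with control and 9.24 with Tet1 siRNA and the second 8.29 and 8.35. The third read 8.37 and 9.42, 2.07-fold higher with Tet1 siRNA, a size found for 1.30% of genes. It also ran against the others between the control arrays, where it was 0.53 lower in E14 while the others were 0.60 and 0.75 higher. The probe sets therefore differ in the size of the J1 difference and in the direction of the difference between the lines. In E14 the brightest differed by -0.42 ± 0.09 over both hairpins (SE; limma adjusted p = 0.417).

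Counted over the 5 genes above the filter, 0 were at least 2-fold different with Tet1 siRNA in J1, 1 with shRNA3387 (Sp5, lower), 0 with shRNA2863 and 1 between the hairpins (Sp5). The share of all 13619 genes above the filter was 1.57%, 1.81%, 1.2% and 1.01% in the same comparisons, and 0.653% and 0.345% were lower by 2-fold with shRNA3387 and between the hairpins. At 1.5-fold the counts were 1 (Lef1, lower), 2 (Sp5 and Lef1), 0 and 2 (Sp5 and Lef1), beside 9%, 8.75%, 6.89% and 5.65% of genes. By direction, 6.09% of genes were lower by 1.5-fold in J1. With shRNA3387, 5.39% were higher and 3.36% lower, and between the hairpins 3.53% were higher and 2.11% lower. In 4 of the 5 genes, all but Sp5, the J1 difference had the opposite sign of both E14 differences, which held for 34.7% of all genes. Nkd1 is among the 4 but passed the filter only through the scramble array, so its E14 signs follow from that selection, and for Ccnd1 the J1 sign turned with median centring (-0.01). The E14 differences share the scramble array. The median difference of the 5 genes was 0.03 in J1, -0.37 with shRNA3387 and -0.20 with shRNA2863, where all genes above the filter had medians of -0.01, -0.02 and -0.01. The middle gene was Ccnd1 in the first and second of these and Nkd1 in the last.

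No member passed a test of Tet1 depletion. In limma, 0 of 5 members and 0 of 13619 genes (0%) had an adjusted p under 0.05 over both systems, with 0 members and 936 genes at an unadjusted p under 0.05. In E14 alone the count was again 0 of 5 and 0 of 13619 (0%), with 2 members, Nkd1 and Ccnd1, and 1499 genes at an unadjusted p under 0.05. The Nkd1 value supports nothing, since the gene was kept only for its level on the scramble array, the control of this comparison. That fit has 1 residual degree of freedom, from the pair of hairpins, and assumes that the lone scramble array varies as they do.

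The levels were then compared between the lines. Lef1 and Sp5 were the members that stood apart, both higher in feeder-free E14 cells. Between the control arrays Lef1 was 6.73-fold and Sp5 5.62-fold higher in E14, sizes reached by 0.308% and 0.389% of genes, and these were the 2 of 5 members past 2-fold, beside 8.36% of all genes in either direction and 3.52% higher. With the median over its probe sets the Lef1 difference was 1.60 in place of 2.75. Lef1 did not overlap between the lines by its brightest probe set: its highest J1 value was 5.32 and its lowest E14 value 8.07. Sp5 did not overlap either, but its shRNA3387 value of 4.97 was only 0.70 above the J1 control. Axin2 lay the other way, with all E14 values under both J1 values, and Ccnd1 was higher in E14 by its brightest probe set only from 9.24 to 9.34. In all, 4 of 5 members had no overlap between the J1 and E14 arrays, where 48.9% of genes had none. Of these members 3 were higher in E14, beside 27.1% of genes, and 1 was lower, beside 21.8%.

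With Tet1 depletion as a term, limma gave Lef1 a difference of 3.45 ± 0.39 for E14 against J1 (SE, 3 and 2 arrays; limma adjusted p = 0.0244). Sp5 differed by 2.25 ± 0.72 (limma adjusted p = 0.13), Axin2 by -0.81 ± 0.24 (limma adjusted p = 0.116), Ccnd1 by 0.34 ± 0.14 (limma adjusted p = 0.2) and Nkd1 by 0.16 ± 0.10 (limma adjusted p = 0.338). The Nkd1 value supports nothing here either, since the gene was kept only for its level on an E14 array, scramble. Only Lef1 passed, 1 of 5 members, where 14.2% of all genes passed and 6.39% passed as higher in E14. The Lef1 call was lost when any array was left out, with differences of 2.75 to 3.98 and adjusted p of 0.0904 to 0.121, and no gene at all passed in those fits. Its second probe set differed by 0.83 ± 0.45 in the fit over all probe sets (limma adjusted p = 0.319).

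**Figure D3:**
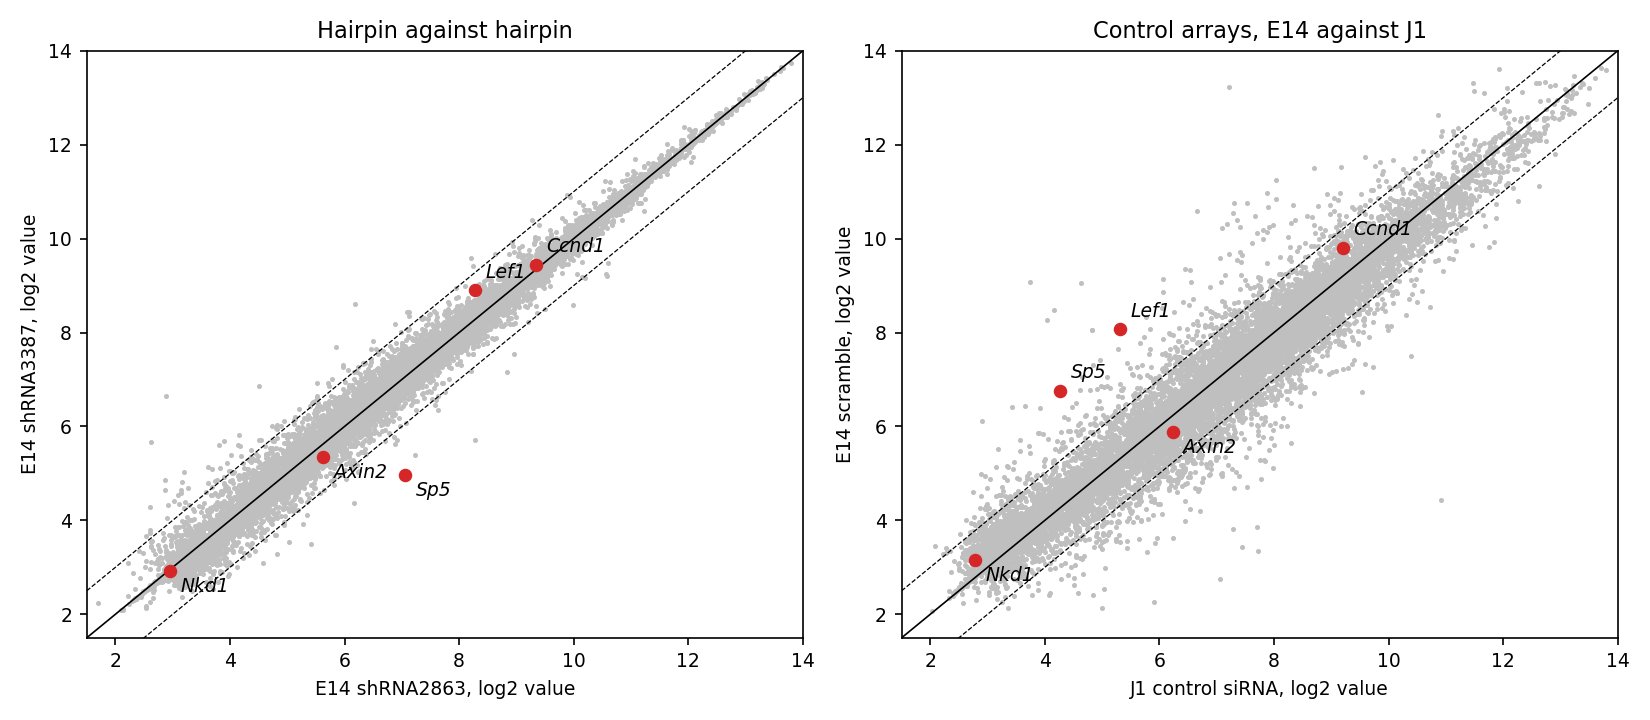
Log2 values of all 13619 genes above the filter (grey) on 2 arrays, shRNA3387 (y axis) against shRNA2863 (x axis) on the left and E14 scramble (y axis) against J1 control (x axis) on the right; the members are in red, the solid line is equality and dashed lines are 2-fold. Sp5 lies 2.09 under the line on the left and 2.49 above it on the right, where Lef1 lies 2.75 above it.

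Feeder cells were a further difference between the lines, and their markers were read on the same arrays. Of 12 fibroblast feeder markers 9 were above the filter. The log2 of their summed signal was 10.19 and 10.62 on the J1 arrays and 10.02 to 10.34 on the E14 arrays. These ranges overlapped. Vim made up most of each sum, at 9.94 and 10.47 in J1 and 9.82 to 10.19 in E14, so the overlap is largely that of this gene. Between the control arrays 7 of the 9 were higher in E14 and 2 in J1. The median of the 9 was 0.08, where all genes above the filter had 0.02. Of the 7, Lum, Prrx1 and Pdgfrb differed by only 0.08, 0.04 and 0.05, and the others by 0.22 to 0.61. Probe sets under the filter level on all arrays also lay slightly higher in E14 scramble, by a median of 0.04. From their 5th to their 95th percentile they ran from 0.01 to 0.18. The marker that stood apart was Col1a2 (-2.62). This fibrillar collagen chain read 6.24 and 5.95 in J1 and 3.59 to 3.62 in E14, whereas Dcn and Postn were under the filter level in both lines. The part of feeder cells in the line differences was not tested. Fewer cells of a type and less RNA per cell cannot be told apart in such bulk samples.

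Some primed epiblast markers were higher on the shRNA3387 array on which Sp5 was low and Lef1 high. Of 6 markers, 3 were at least 2-fold higher with shRNA3387 than with scramble, beside 1.15% of all genes: Fgf5 (from 2.91, under the filter level, to 6.65), Sox3 (3.73 to 6.61) and the POU factor Pou3f1 (8.82 to 9.85). Fgf5 passed the filter only through the shRNA3387 array, so its place among the 3 follows in part from the selection. With shRNA2863 the number was 1, Sox3 at 5.52, beside 0.587% of all genes. The other markers, Dnmt3b, Otx2 and Foxd3, differed by 0.53, 0.18 and -0.07 with shRNA3387. The log2 of the summed signal of the list was 11.91 with scramble, 12.51 with shRNA3387 and 12.02 with shRNA2863. Dnmt3b, at 11.49, 12.02 and 11.62, made up most of each sum. In J1, where Lef1 was lower with Tet1 siRNA, 2 of the 6 were at least 2-fold lower, beside 1.1% of all genes. These were Otx2 (-2.03) and Foxd3 (-1.04), and none was 2-fold higher. There the 10 embryonic stem cell markers differed by -1.21 to -0.12, with a median difference of -0.51, where all genes above the filter had a median of -0.01. With shRNA3387 and shRNA2863 the medians of these markers were -0.09 and -0.06, beside -0.02 and -0.01 for all genes above the filter. The part of these shifts in the levels of the Wnt targets was not tested.

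Pathway components upstream of the targets were read from the same arrays. Of 24 ligands and secretion factors 14 were above the filter, and of these 0 were 2-fold higher and 1 lower in J1, 0 and 0 with shRNA3387, and 0 and 0 with shRNA2863. Of all genes, 1.57%, 1.81% and 1.2% were 2-fold different in these depletions, and 1.1% were lower in J1. The gene past 2-fold was Porcn, the acyltransferase that lipidates Wnt proteins before secretion. It read 6.40 and 5.36 in J1 and 7.19, 6.26 and 6.72 in E14, and so was lower with each depletion (-1.04, -0.93 and -0.47). Wls, the carrier of Wnt proteins to the cell surface, differed by 0.61, -0.02 and 0.63, and Wnt7b, the brightest ligand, by 0.05, -0.36 and -0.02. With shRNA3387, 13 of the 14 were under scramble, with a median of -0.20, where 57% of all genes above the filter were under it. Several of these ligands read close to the filter level, and probe sets under that level also lay slightly lower on this array. A gene close to that level can pass the filter through a high scramble value alone, as Nkd1 did. The count of 13 can therefore follow in part from the selection.

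Of 21 receptors and Dishevelled proteins 20 were above the filter, and 0 were 2-fold different in any depletion, beside 1.2% to 1.81% of all genes. Their median was 0.02 in J1, 0.20 with shRNA3387 and -0.01 with shRNA2863, and 5 were at least 1.5-fold higher with shRNA3387 beside 5.39% of all genes. The Frizzled receptor Fzd6 differed by 0.59, 0.86 and 0.25, Dvl1, which relays the signal from the receptor, by -0.42, 0.81 and 0.58, and the R-spondin receptor Lgr4 by -0.04, 0.30 and 0.01.

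Of the destruction complex genes and beta-catenin 11 of 13 were above the filter, and 0 were 2-fold different in any depletion, beside 1.2% to 1.81% of all genes. Ctnnb1, which encodes beta-catenin, read 12.38 and 12.40 in J1 and 11.94, 11.95 and 11.96 in E14, within 0.02 of its control in each depletion. Amer1, which binds Apc, differed by -0.92, -0.06 and -0.14. Frat2, an inhibitor of Gsk3, differed by -0.84, 0.44 and -0.05, with 2.29 under the filter level with Tet1 siRNA. The transcript level says nothing of the amount or location of the beta-catenin protein.

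Among TCF factors and cofactors 14 of 15 were above the filter and 0 were 2-fold different in any depletion, beside 1.2% to 1.81% of all genes. Tcf7l2 differed by 0.63, 0.71 and 0.38, the short Groucho protein Tle5 by -0.50, -0.85 and -0.36, and the corepressor Ctbp2 by 0.08, 0.19 and -0.43. Tcf7l2 was higher and Tle5 lower with each of the 3 depletions, each below 2-fold.

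Of 20 secreted and membrane inhibitors 12 were above the filter. With shRNA3387, 1 was 2-fold higher, beside 1.15% of all genes. This was Nkd2, a relative of Nkd1, which read 3.62 with scramble, 4.84 with shRNA3387 and 4.01 with shRNA2863. In the other depletions 0 were 2-fold different, beside 1.57% of all genes in J1 and 1.2% with shRNA2863. Sfrp2, a secreted Frizzled-related protein, differed by -0.59, 0.73 and -0.17 and was 1.80 higher in E14 than in J1 on the control arrays. Sfrp4 differed by -0.31, -0.76 and -0.75. Sfrp2 followed the signs of Lef1 in J1 and with shRNA3387 but not with shRNA2863.

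Of 24 other reported Wnt targets 20 were above the filter, with 1 higher and 2 lower by 2-fold in J1, 2 and 2 with shRNA3387, and 3 and 1 with shRNA2863. Beside these, 0.47% and 1.1% of all genes were higher and lower in J1, 1.15% and 0.653% with shRNA3387, and 0.587% and 0.609% with shRNA2863. The TNF receptor family member Tnfrsf19 read 4.65 with scramble, 4.38 with shRNA3387 and 6.17 with shRNA2863. The hyaluronan receptor Cd44 read 4.46, 5.84 and 5.87 on these arrays, and Mycn, the brightest of the list, 11.02, 11.23 and 10.85. Tnfrsf19, like Sp5, was lower with shRNA3387 than with shRNA2863, by -1.79, but it was the shRNA2863 array that stood apart from scramble. Chosen after their values were seen, Tbx3 and Gbx2, both transcription factors, and Fst and Ascl2 are added. Tbx3 read 7.77 and 7.25 in J1 and 8.94, 7.54 and 8.95 in E14 with scramble, shRNA3387 and shRNA2863, and so, like Sp5, was low among the E14 arrays with shRNA3387. Gbx2 read 6.90 and 5.61 in J1 and 7.50, 6.18 and 6.25 in E14, more than 2-fold lower with each depletion (-1.29, -1.32 and -1.25). Genes past 2-fold lay in both directions in each depletion, and the list had medians of -0.29 in J1, -0.19 with shRNA3387 and -0.02 with shRNA2863.

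**Figure D4:**
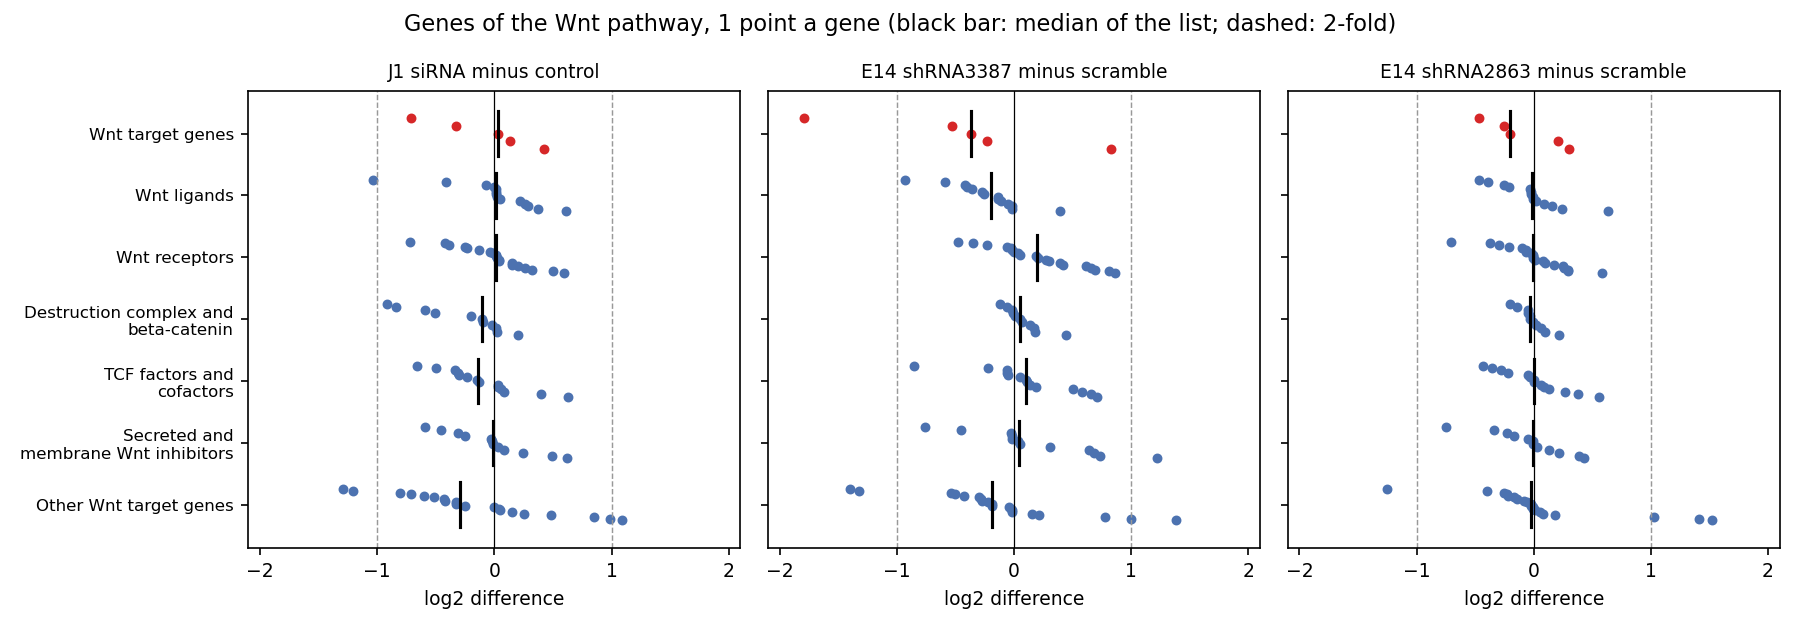
Log2 differences from the control of the same line (x axis) for each gene above the filter, by list (rows) and depletion (panels); red points are the 5 members, blue points other genes of the pathway, black bars the median of a list and dashed lines 2-fold. Points of the destruction complex lie within 2-fold in all panels, and the Sp5 point at -1.79 is the lowest of all lists with shRNA3387.

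The genes with the profile nearest to Sp5 over the 5 arrays, by Euclidean distance after each profile was centred on its own mean, were Ptp4a3 (distance 1.11), Crip1 (1.23), Epp13 (1.23), Rhox13 (1.26) and Notum (1.31). Notum, a secreted enzyme that removes the lipid from Wnt proteins, read 5.61 and 5.15 in J1 and 7.26, 6.81 and 7.29 in E14. It had the sign of Sp5 in each of the depletions and between the hairpins (-0.48), with only 0.03 for shRNA2863. Since Notum was picked for its nearness to Sp5, the shared signs are not a separate observation. The distance from Sp5 to the nearest other member, Ccnd1, was 2.58.

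For Lef1, the member with the widest range over the arrays (4.29), the nearest profiles were those of Smim4 (0.62), Tomm7 (0.70), Cox7a1 (0.82), Sycp3 (0.82) and Atp5k (0.89). All 5 were 2.80 to 3.22 higher in E14 scramble than in J1 control, and none was 1.5-fold different from scramble with either hairpin. The nearest other member was Sp5, at 2.61. With 5 arrays and 13619 genes, near profiles are a description of these arrays. What they share with Sp5 or Lef1 follows largely from how they were picked.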

How the data were processed

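RNA of 5 samples was measured on 1 Affymetrix array each, and groups were taken from the labels. Each deposited value is the log2 signal of a probe set; the log2 scale was inferred from the range, and how the authors summarised and normalized the signals is not given in the sources used here. They were used as deposited. Names came from the array platform's annotation, and probe sets with exactly 1 symbol were used (34945 of 45037 non-control probe sets). The probe set with the highest mean stood for its gene in counts and fits, and genes above the 40th percentile of an array on at least 1 array were kept (13619 of 18193).

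Pairs of single arrays were compared by size, at 2-fold and 1.5-fold. Two-sided tests were made in limma 3.58.1 (R 4.3.3), with eBayes following the mean-variance trend and p-values adjusted by Benjamini-Hochberg over the kept genes: a fit with a system and a Tet1 term (2 residual degrees of freedom), and a fit of 4 means (1 residual degree of freedom). With no replicate arrays, a p-value here reflects only how these arrays scatter, whether from hairpin, line or handling, and precision is limited by their number. Only the term for Tet1 depletion over both systems was tried on simulated data with known shifts. The other comparisons were not. The alternatives were quantile normalization, median centring, the median over probe sets, other filters, all probe sets, no trend, no system term, a 1.5-fold threshold and leaving out each array.

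The members and gene lists were chosen with earlier results of these data known. Named genes were the members; Tet1, Pou5f1, Sox2 and Nanog; per pathway list the brightest gene and the 2 with the largest difference in a depletion; and the 5 nearest profiles of the member with the widest range and of that with the largest difference between hairpins. Col1a2, Dcn, Postn, Vim, Lum, Prrx1, Pdgfrb, Eomes, Fgf5, Sox3, Otx2, Foxd3, Pou3f1 and Dnmt3b come from the marker lists. They were picked for mention after their values were seen. Batches are not named in the labels.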

Additional observations from a re-analysis of the deposited data

Results flagged for a closer look

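For 4 of the 5 members above the filter, the difference with Tet1 siRNA in J1 had the opposite sign of the differences with both hairpins in E14, as was the case for 34.7% of all genes above the filter; 1 of the 4, Nkd1, is no evidence of this. The effect in E14 minus the effect in J1 was -0.81 ± 0.28 for Axin2, 1.23 ± 0.57 for Lef1, -0.34 ± 0.05 for Nkd1 and -0.45 ± 0.14 for Ccnd1 (SE from limma). None passed limma's test of this difference, with adjusted p of 0.411, 0.485, 0.336 and 0.387, and with 0 of 13619 genes called and 1887 at an unadjusted p under 0.05. Nkd1 was kept only because its scramble value exceeded the filter level, so the negative sign of its hairpin differences was set by that selection. Its J1 difference of 0.13, between values under the filter level, does not involve the scramble array. For Ccnd1 the J1 difference of 0.03 became -0.01 after median centring, so its sign in J1 depended on the scaling. Both E14 differences share the scramble array.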

How the results depend on the processing

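Over all results, 383 values were recomputed under an alternative. Sp5 kept its sign and its 2-fold difference for shRNA3387 against scramble and against shRNA2863 under both scalings. The values were -1.91 to -1.73 and -2.14 to -2.06. The filters and the median over probe sets could not change these differences, because Sp5 has only 1 probe set and a filter leaves its values as they are. At 1.5-fold the counts of members became 1 in J1, 2 with shRNA3387 and 2 between the hairpins. With the median over probe sets it became 2 with shRNA3387, since Lef1 then differed by 1.04. With that median Ccnd1 differed by 0.87 in J1 and -0.74 with shRNA2863, and Lef1 by 1.60 between the controls.

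In limma, 0 members passed a test of Tet1 depletion, in both lines or in E14, or of the difference between lines, under any alternative. For the level in E14 against J1, 1 member, Lef1, passed in the 7 alternatives that keep all arrays (adjusted p of 0.0113 to 0.0424), and 0 to 0 members passed when any array was left out. The sign of small differences over both lines turned in several alternatives: Lef1 to 0.00 after median centring, 0.18 with the median over probe sets and 0.57 without the system term, and Ccnd1 to 0.01 with the median over probe sets. Leaving out each array gave ranges of -0.39 to 0.42 for Axin2, -0.42 to 0.03 for Ccnd1, -0.71 to 0.52 for Lef1 and -0.22 to 0.13 for Nkd1. The level of Ccnd1 in E14 against J1 turned to -0.19 with the median over probe sets, whose probe sets disagree. The cause was not tested for the other changes. The number of all genes called for the level was 1936, and 4260 of 29001 over all probe sets. The fit of 4 means could not be fitted without a hairpin, nor the difference between lines without a J1 or the scramble array. No paired analysis was possible because each group has 1 array.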
